A study of Mus musculus with 6 samples.

Results

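Pericytes and vascular smooth muscle cells of the fracture callus, here called mural cells, were described in 6 single-cell RNA libraries. Barcodes were kept when they held at least 1000 unique molecular identifiers (UMIs, 1 per captured transcript) and at most 10% mitochondrial UMIs. A kept barcode was counted as a mural cell when the UMIs of Rgs5, Myh11, Notch3, Kcnj8 and Higd1b summed to at least 5, those of the endothelial genes Cdh5 and Pecam1 to fewer than 2, and the leukocyte gene Ptprc had at most 1. Of 38001 kept barcodes, among 46944 in all, 1759 (4.63%) met this rule. The levels of these 5 genes therefore describe the cells and are no findings. Of the members, 54 had exactly 5 UMIs of the rule genes, and 124 barcodes with 4 stood just outside. A further 369 barcodes with enough rule UMIs were left out for their endothelial or leukocyte UMIs.

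The calluses came from 12-week-old male mice with a femoral fracture, collected 14 days post fracture. The labels give the 3 control libraries the genotype wt, and the study describes these mice as Piezo1 f/f, that is, with floxed Piezo1 and without Cre. The 3 knockout libraries carry the label Col2CreERT; Piezo3-/-, where the study describes deletion of Piezo1 by a tamoxifen-inducible Cre driven by the Col2a1 promoter. Both groups were given tamoxifen at 75 mg per kg on 5 consecutive days from day 5. The Cre acts in cells that express Col2a1, chiefly chondrocytes, so mural cells were not its intended target. Reads of a 3′ library come from the end of a transcript, so Piezo1 UMIs cannot check the deletion. The libraries are 10x 3′ libraries, and the labels do not say whether each came from 1 mouse. The study gives differing numbers of mice per group in different parts of its text. The spread between libraries may therefore be partly technical.

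Mural cells sit on the outer side of the endothelium and share its basement membrane. Pericytes lie singly along capillaries and venules, are recruited by PDGF-B through the receptor Pdgfrb, and carry the ATP-sensitive potassium channel made of Kcnj8 and Abcc9. Smooth muscle cells wrap arteries and larger veins and set vessel tone through actin, the smooth muscle myosin heavy chain Myh11 and the calcium stores that drive contraction. Notch3, activated by Jagged ligands of neighbouring cells, maintains both, and transcripts grade from one kind of cell to the other along the vessel. In a callus, vessels grow into the cartilage as it is replaced by bone.

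The control libraries held 69361237, 77384286 and 80735192 UMIs in 4603, 9392 and 9754 barcodes. The knockout libraries held 57626530, 103784364 and 102513582 UMIs in 3482, 11447 and 8266 barcodes. Mural cells numbered 163, 573 and 709 in the control and 48, 102 and 164 in the knockout libraries, at median depths of 17965, 7248 and 6467 UMIs per cell against 30968, 8004.5 and 13436.5. Replicate 1 of each group was thus the deepest per mural cell and had the fewest mural cells, and both libraries numbered 1 had been processed with Cell Ranger 6.1.1, the others with 6.1.2. Both libraries numbered 3 list 55357 genes in place of 55450. A control and a knockout library of the same number therefore share the software version and the gene list, and the direction within each number is given beside the group means. The libraries share 222 barcode sequences. Of the members, 22 had a barcode that also occurs in another library, and 0 barcodes were shared among members.

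Knockout library 3 stood apart from the others and from the stated sex of the mice. Its mural cells held 1643 UMIs of Xist, the RNA that coats the inactive X chromosome of females, against 0, 0 and 1 in the control libraries and 0 in knockout libraries 1 and 2. The Y-linked genes Ddx3y, Eif2s3y, Uty and Kdm5d had 0 UMIs in its mural cells, whereas the other libraries held between 59 and 659 for Ddx3y. The shares, Piezo1, the counts of calls and the lists of contractile, tone and cell cycle genes are therefore also given without replicate 3 of both groups.

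The label was checked by the density of rule-gene UMIs, that is, their number per 10000 UMIs of the cell. Across all members the median density was 101.7, with quartiles of 58.7 and 149.3. A second group of 189 members (10.7%) lay below 20 per 10000. These sparse members were deep cells, with a median of 20850 UMIs of which 8 came from the rule genes, whereas the other 1570 had a median of 7034.5 UMIs of which 80 came from the rule genes. Sparse members made up 32.5%, 2.27% and 6.21% of the mural cells in the control libraries and 31.2%, 33.3% and 18.3% in the knockout libraries.

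**Figure D1:**
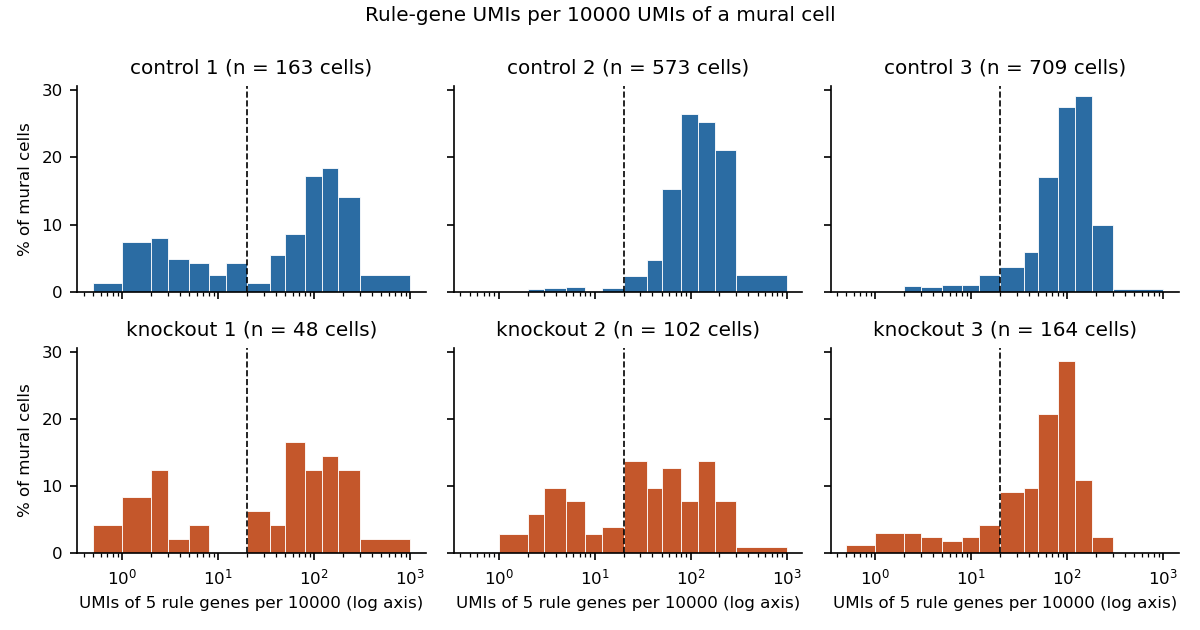
Percent of the mural cells of each library by UMIs of the 5 rule genes per 10000 UMIs of the cell (log axis, bins of unequal width), in 1 panel per library. The dashed line marks 20 per 10000. The share of cells left of the line is 2.27% in control library 2 and 6.21% in control library 3, and between 18.3% and 33.3% in the other 4 libraries.

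Markers of other cell types went against the label in the sparse members. The summed level of 6 mural markers, in CPM (UMI counts scaled so that each set of cells of each library has the same sum), was 19487, 19162 and 14769 CPM in the control libraries and 16424, 13445 and 14466 in the knockout libraries for members with at least 20 per 10000. In the sparse members the same sum was 695, 1399.8 and 4002 CPM in the control libraries and 407, 653 and 1218 in the knockout libraries, but 5 of these markers are the rule genes that define the density, so this gap follows from the limit. Pdgfrb and Des, mural genes that the rule did not use, lay at 173 to 736 and 19.8 to 174 CPM in the sparse members and at 564 to 989 and 245 to 393 CPM in the others, and each was higher in the denser members of each library. The osteoblast list (Bglap, Ifitm5, Ibsp, Dmp1, Spp1 and Col1a1) summed to 25758, 21438 and 23725 CPM in the control libraries and 37735, 17538 and 18874 in the knockout libraries in the sparse members and to 10614, 2863 and 7542 CPM in the control libraries and 5061, 9711 and 7338 in the knockout libraries in the others, and Col1a1, the main bone collagen, was its most abundant gene. The fibroblast list (Pdgfra, Dpt, Pi16, Clec3b, Lum and Dcn), led by the proteoglycan gene Dcn, summed to 3804, 2589.9 and 5369 CPM in the control libraries and 2415, 602 and 1768 in the knockout libraries in the sparse members and to 329.8 to 655 CPM in the others. Both sums were higher in the sparse members of each of the 6 libraries. Of the sparse members, 27 had at least 3 Myh11 UMIs. The sparse members are not called mural by these markers, and the main results below are given with all members and with the 1570 members of at least 20 per 10000, a limit chosen after the data were seen.

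The levels of the rule genes in the 1570 denser members, which follow from the selection, show what kind of cells it drew. Rgs5 (regulator of G protein signalling 5; ENSMUSG00000026678, chr1:169655501-169695813 in GRCm38) had 7903, 10694 and 8954 CPM in the control libraries and 8608, 6646 and 6646 in the knockout libraries. In endothelial cells, 5470 kept barcodes with at least 4 UMIs of Cdh5 and Pecam1 and, by definition, fewer than 5 of the rule genes, Rgs5 lay at 5.10 to 22.4 CPM. With each cell thinned to 1000 UMIs, 95.4% of the denser members had an Rgs5 UMI, against 1.79% of endothelial cells and 2.54% of immune cells. The endothelial share is limited in part by the definition of those cells, and the part of free RNA in both shares was not tested. Unthinned, the shares were 98.2%, 14% and 12.3% at median depths of 7034.5, 8284.5 and 6859 UMIs. Notch3 had 799, 825 and 841 CPM in the control libraries and 913, 604 and 465 in the knockout libraries, and Higd1b, a protein of the inner mitochondrial membrane, had 241, 354 and 386 CPM in the control libraries and 167, 303 and 428 in the knockout libraries. Cdh5, Pecam1 and Ptprc, on which cells were also chosen, belong to the next lists, so the gaps there follow in part from the selection. The endothelial list of 6 genes summed to 54.8 to 113 CPM in the denser members against 3949.5 to 5221 in endothelial cells. The immune list of 8 genes summed to 143 to 1335 CPM against 17324 to 44786 in immune cells, with S100a8, an abundant neutrophil transcript, as its most abundant gene.

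Genes that the rule did not use also set the mural cells apart from their neighbours. Pdgfrb, the receptor through which pericytes are recruited, had 574, 636 and 859 CPM in the control libraries and 715, 989 and 564 in the knockout libraries in the denser members and 6.23 to 35 CPM in endothelial cells. Over all members, the highest median log2 ratio to the other kept cells, among genes with a mural level of at least 50 CPM in each library, was that of Olfr558, a G protein-coupled receptor of the olfactory receptor family, at 6.06 (5.79 to 6.83 over 6 libraries). It was followed by Lmod1, which nucleates actin filaments in smooth muscle, at 5.61 and Acta2, smooth muscle α-actin, at 5.31. Gucy1b1 and Gucy1a1, the subunits of the nitric oxide receptor, were at 5.28 and 5.21, and Mrvi1, which passes their signal on to the calcium store, at 5.22. Ppp1r14a, an inhibitor of myosin phosphatase, the intermediate filament gene Des, the sodium pump subunit gene Atp1b2 and Tagln, an actin-binding protein of smooth muscle, followed at 5.12, 5.01, 4.95 and 4.88. Against endothelial cells alone, Cygb (cytoglobin), Actg2 (smooth muscle γ-actin) and Myl9 (the regulatory light chain of myosin) were also among the 10 highest, at 6.20, 6.02 and 6.0. Since the members were chosen on these cells, these ratios are a description without a test.

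**Figure D2:**
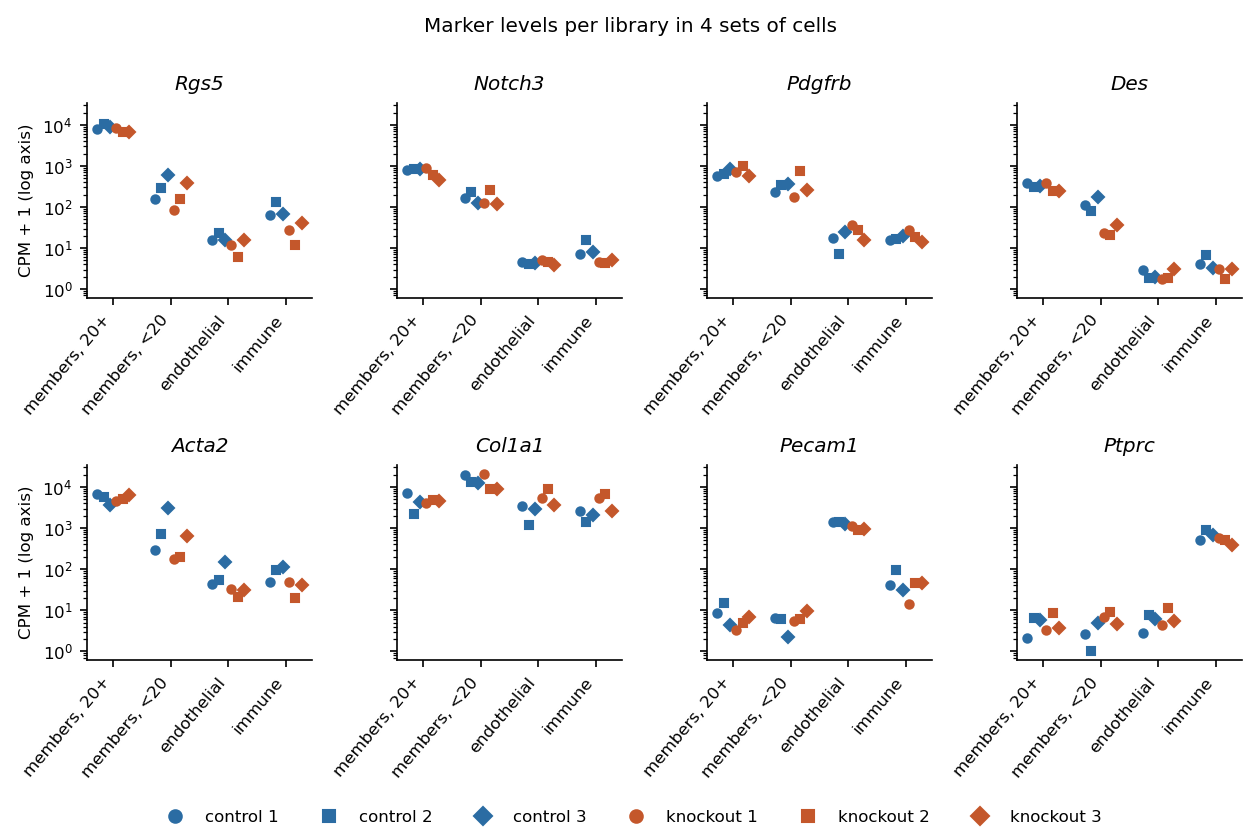
Level of 8 marker genes (CPM + 1, log axis) in members with at least 20 (denser) and with fewer than 20 (sparse) rule UMIs per 10000, in endothelial cells and in immune cells; each point is 1 library, blue for control and orange for knockout. Rgs5, Notch3, Pdgfrb and Des are highest in the denser members of each library, whereas the sparse members have the highest Col1a1, and Pecam1 and Ptprc are high only in the endothelial and immune cells that they were used to choose.

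Contractile genes separated the members with at least 3 Myh11 UMIs (Myh11-rich) from those with fewer (Myh11-poor). The split is part of the rule, so log2 fold changes between both, with the library as a block, are a description, and a gene is named as called without its p. Of the denser members, 92, 395 and 372 of the control libraries and 23, 25 and 70 of the knockout libraries were Myh11-rich. Across 11899 genes tested over all members, 11.3% were past an adjusted p of 0.05 in the edgeR quasi-likelihood fit with Benjamini-Hochberg adjustment (724 higher and 623 lower in Myh11-rich cells, 6.08% and 5.24%). For the denser members, 5.15% of 10761 genes were (396 higher, 3.68%, and 158 lower, 1.47%). Of the calls, 429 were made in both, which is 31.8% of those over all members and 77.4% of those in the denser members, and 428 of them had the same direction. Control library 1 had 18 denser Myh11-poor cells, with a median of 2396.5 UMIs, and knockout library 1 had 10. Of all members, 162 had exactly 3 Myh11 UMIs and 148 had 2.

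All 15 genes of the contractile apparatus that were tested besides Myh11 were called higher in Myh11-rich cells over all members, with a median log2 fold change of 2.73, and 14 of 15 among the denser members, with a median of 2.11 (all genes tested, -0.032 and 0.0025). In the denser members, Acta2 (ENSMUSG00000035783, chr19:34241090-34255590) had 6978, 7491 and 4972 CPM in the control libraries and 5445, 9008 and 8533 in the knockout libraries in Myh11-rich cells. In Myh11-poor cells it had 1555, 1439 and 1452 CPM in the control libraries and 756, 1249 and 2059 in the knockout libraries. The classes did not overlap, and the log2 fold change was 2.39 (SE 0.13, higher in 6 of 6 libraries). Cnn1, the actin-binding calponin of differentiated smooth muscle, was at 90.3 to 264 CPM in Myh11-rich and 0 to 16.8 CPM in Myh11-poor cells, a log2 fold change of 4.73 (SE 0.25). Tagln and Actg2 had log2 fold changes of 2.85 and 2.52, Lmod1 and Myl9 2.36 and 2.11, and the tropomyosin genes Tpm1 and Tpm2 1.42 and 1.74. Cald1 (caldesmon), at 0.54, had the smallest of the called differences. Des was the member that was not called, at 0.048 (SE 0.12): both classes carried it at like levels, 222 to 395 and 222 to 435 CPM.

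The promoters of 2 contractile genes are shown because the factors that drive smooth muscle genes are known to bind the motifs they hold. In the RefSeq promoter windows (GRCm38.p6), 250 bases before each start were searched on both strands for the CArG box, the site of serum response factor, and for TGGGAA, the core of the site of the Notch effector RBPJ. The CArG box was matched strictly, as CCWWWWWWGG with W being A or T. Of 10 genes looked up (Acta2, Myh11, Tagln, Cnn1, Lmod1, Myl9, Rgs5, Kcnj8, Higd1b and Notch3), 7 had an entry. Myl9 held a CArG box beginning 161 bases before the start that its window uses, a motif that 1.47% of 32851 promoters held. Acta2 held the RBPJ core, a motif that 21.6% of promoters held, beginning 27 bases before the start that its window uses. This stretch lies inside the gene as located above and overlaps an annotated exon. By these strict patterns, neither window held both motifs, and neither motif was found in the windows of the other 5 genes. Forms of the CArG box with another base inside were not searched. The Acta2 stretch holds such a form, CCTTGTTTGG, which overlaps its RBPJ core. Both stretches are printed 5′ to 3′ on the strand of the gene, with the motif in capitals.
Myl9, chr2:156775214-156775419, plus strand: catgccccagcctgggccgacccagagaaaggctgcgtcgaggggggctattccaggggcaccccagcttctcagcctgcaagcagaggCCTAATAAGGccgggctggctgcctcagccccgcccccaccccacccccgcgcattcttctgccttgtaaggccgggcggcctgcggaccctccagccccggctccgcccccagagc
Acta2, chr19:34255383-34255412, minus strand: ttgctccttgttTGGGAAgcgagtgggagg

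The genes with the highest log2 fold changes over all members, among those called with the same direction in each library, were led by Rergl, a Ras-like small GTPase, with 279 UMIs in Myh11-rich and 0 in Myh11-poor cells. With 3 counts over the Myh11-poor class as the floor, it was at least 72.6-fold higher. Pln, phospholamban, the brake on the calcium pump of the sarcoplasmic reticulum, had 999 UMIs against 3 (ratio 260 at equal depth, 95% counting interval 88.7 to 1263). Perp, a tetraspan membrane protein, had 112 UMIs against 0, at least 29.1-fold higher. Ryr2, the calcium release channel of the same store, had 142 UMIs against 2, the sodium channel subunit gene Scn4b 144 against 1, and the capsaicin-gated channel gene Trpv1 80 against 1. Plin4, a lipid droplet coat protein, had 158 against 2, Grip2, a scaffold protein, 231 against 5, and Asb2, which targets filamins for degradation, 273 against 6. Cnn1 had 1674 against 33 and completed these 10, all of which were higher in Myh11-rich cells of 6 of 6 libraries. Myocd, the coactivator of serum response factor that drives the smooth muscle programme, lay at 15.9 to 102 CPM in Myh11-rich and 0 to 21.4 CPM in Myh11-poor denser cells (log2 fold change 2.05, SE 0.29). Of the 10 contractile regulators it and Mef2c (0.85) were called higher among the denser members and 0 were called lower (4 and 0 over all members); Srf itself was at 0.32 (SE 0.24).

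Most genes of vessel tone had log2 fold changes above 0 in Myh11-rich cells. Of 17 tested channels, receptors and enzymes of tone, 16 were above 0 over all members, with 9 called higher, 0 called lower and a median log2 fold change of 1.19. Among the denser members 12 of 17 were above 0, with 9 called higher, 1 called lower and a median of 0.57. The values that follow are those of the denser members. P2rx1, the ATP-gated channel by which sympathetic nerves contract arteries, had a log2 fold change of 3.95 (SE 0.42), the T-type calcium channel gene Cacna1h 3.05 and the L-type channel gene Cacna1c 0.55. Both nitric oxide receptor subunits, Gucy1a1 and Gucy1b1, were at 0.60 and 0.60, and the cyclic nucleotide phosphodiesterase gene Pde3a at 1.15. The gene called lower, there alone, was Agtr1a, the angiotensin II receptor, at -0.74 (SE 0.15, lower in 6 of 6 libraries).

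Among the denser members, but not over all members, the genes of the ATP-sensitive potassium channel had higher levels in Myh11-poor cells. Its genes are neighbours on chromosome 6 (Kcnj8, ENSMUSG00000030247, chr6:142564837-142571614, and Abcc9, ENSMUSG00000030249, chr6:142587862-142702315). With only the denser members, Abcc9 had 807, 632 and 441 CPM in the control libraries and 813, 331 and 273 in the knockout libraries in Myh11-poor cells. In Myh11-rich cells it had 289, 300.2 and 277 CPM in the control libraries and 287, 147 and 182 in the knockout libraries. Each library was thus higher in its Myh11-poor cells, by a log2 fold change of -1.0 (SE 0.13) for Myh11-rich against Myh11-poor. Kcnj8 was at -1.14 (SE 0.17), but it is a rule gene, and a Myh11-poor cell reaches the density limit mainly through the other 4 rule genes, so that this difference is partly set by the limit. Over all members the values were 0.19 (SE 0.26) for Abcc9 and -0.025 (SE 0.31) for Kcnj8, so that neither was called. Abcc9 is not a rule gene, but the density limit also chose the Myh11-poor cells compared for it. Its value among the denser members is therefore a description of the cells so chosen. Steap4, a metalloreductase, and Pdgfrb had the same direction among the denser members, at -0.86 (SE 0.13) and -0.50 (SE 0.11), each lower in Myh11-rich cells of 6 libraries. Over all members both were above 0, as were all 12 pericyte genes tested outside the rule, so their direction turned with the density limit.

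Not all pericyte genes had lower values in Myh11-rich cells of the denser members. Of 12 tested outside the rule, 3 were called lower and 2 higher in Myh11-rich cells among the denser members, with a median log2 fold change of 0.048. The 2 that were higher were Colec11, a collectin, at 1.24 (SE 0.24) and Gja4, the gap junction protein connexin 37, at 0.63 (SE 0.15). Cspg4, the proteoglycan NG2 by which pericytes are often stained, was at 0.052 (SE 0.14), and Ndufa4l2 and Cox4i2, subunits of the respiratory chain, at 0.098 and -0.07. The rule genes Rgs5, Higd1b and Notch3 had 0.23, 0.088 and 0.28 among the denser members and 1.62, 1.38 and 1.02 over all members, but as for Kcnj8 the rule and the density limit set these differences in part. Rgs5 in Myh11-poor cells of at least 20 per 10000 lay at 5536 to 12434 CPM and in Myh11-rich cells at 6906 to 11297 CPM. Over all members, 5 of the 12 genes were called higher, 0 lower, and the median was 0.87.

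**Figure D3:**
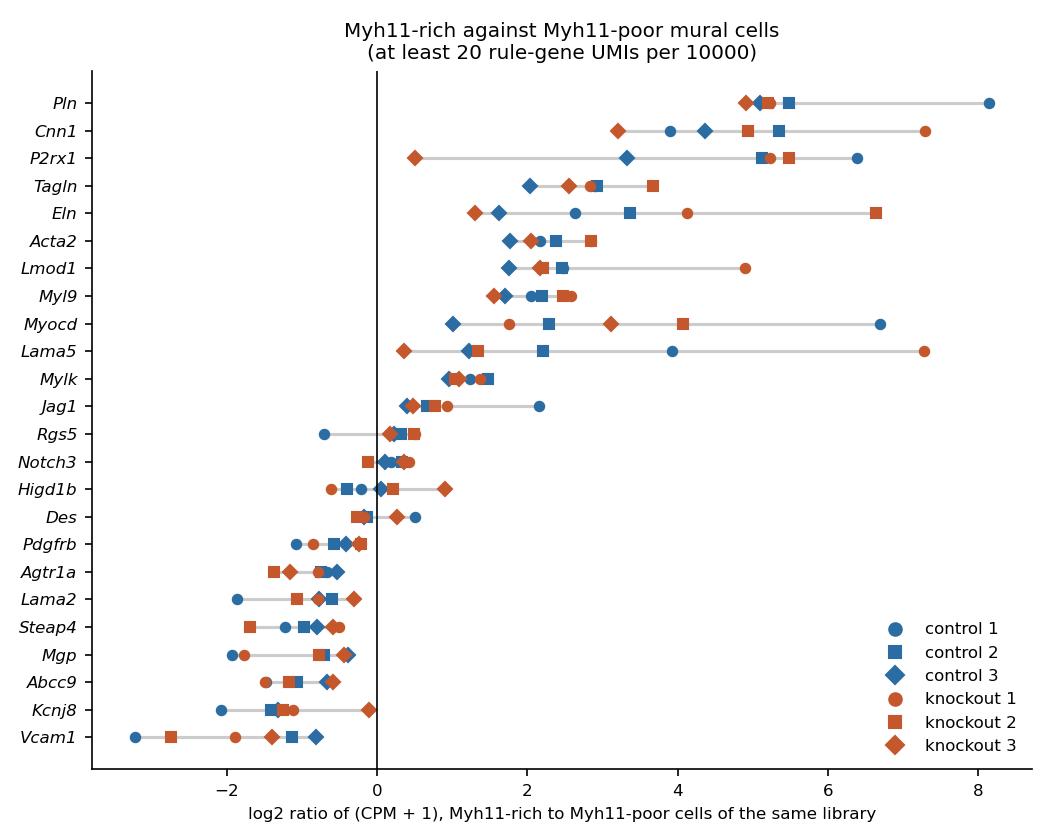
Log2 ratio of the level in Myh11-rich to that in Myh11-poor cells (members with at least 20 rule UMIs per 10000) for 24 genes; each point is 1 library, blue for control and orange for knockout. Contractile genes other than Des lie to the right of 0 in each library, Des and the rule genes Rgs5 and Higd1b lie about 0, and Kcnj8, Abcc9, Steap4 and Vcam1 lie to the left in each library.

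Vessel wall matrix differed between the classes as well. Eln, elastin, the elastic fibre protein of arteries, was at 142 to 818 CPM in Myh11-rich and 3.81 to 158 CPM in Myh11-poor denser cells, a log2 fold change of 2.63 (SE 0.31). It was the single one of 16 interstitial matrix genes that was called higher, and 4 were called lower: Mgp, matrix Gla protein, an inhibitor of calcification, at -0.93 (SE 0.17), Col6a1 at -0.46, Col5a2 at -0.43 and Bgn (biglycan) at -0.42. Over all members 12 of the 16 were called lower, among them Col1a1 at -1.23, which was at -0.49 (SE 0.25) and not called among the denser members. Of 16 basement membrane genes, 2 were called higher and 4 lower among the denser members, with a median log2 fold change of -0.20, whereas over all members 5 were called higher and 1 lower, with a median of 0.39. Among the former, the laminin genes Lama5 and Lamb2, whose products occur together in the laminins of arterial walls, were at 1.79 (SE 0.26) and 0.87 (SE 0.13). Lama2, Lamb1, Nid1 (nidogen 1) and Col15a1 were at -0.80, -0.75, -0.51 and -0.78, and Col4a1, the main collagen IV chain, at -0.38 (SE 0.11), which was not called.

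Signalling genes are given by pathway, to be read beside the 3.68% of all genes tested that were called higher and the 1.47% called lower in Myh11-rich cells among the denser members. In the Notch pathway, the ligand gene Jag1 was at 0.77 (SE 0.15) and the target genes Hey2 and Nrarp at 0.87 and 0.88, 3 of 10 genes tested (also 3 over all members), whereas Heyl, another target, was at -0.022 (SE 0.16). Of 15 tested genes of TGF-β and BMP signalling, the ligand genes Tgfb2, Tgfb3 and Bmp2 were called at 0.83, 1.17 and 0.81, and Ltbp1, which stores latent TGF-β in the matrix, at 1.54. Over all members 3 were called higher and 2 lower. Of 13 genes of adhesion, 5 were called higher and 0 lower among the denser members, and 7 and 3 over all members. The 5 were the integrin genes Itga4, Itga7 and Itga8 at 1.44, 0.64 and 1.51, and the cadherin genes Cdh6 and Cdh13 at 4.47 and 1.28. Cdh6 was higher in 5 of 6 libraries and lay at 0 to 14.3 CPM in Myh11-poor cells. Of 9 PDGF and angiopoietin genes, Pdgfb, the ligand of Pdgfrb, was called higher at 1.12 and Pdgfrb itself lower at -0.50. Over all members Pdgfrb was above 0, and 3 of 10 of these genes were called higher and 2 lower. Of the chemokine and cytokine genes, Kitl, stem cell factor, was called higher at 0.47, and Il33, an alarmin, lower at -2.37 (SE 0.55), lower in 4 of 6 libraries, with levels of 0 to 41.2 CPM in Myh11-poor cells; over all members 1 of 13 was called higher and 3 lower. Of the genes of mechanosensing, Ccn2 (connective tissue growth factor) was called higher at 0.64, and 0 of 10 were called over all members. Of 10 genes of the cell cycle, 12 immediate early and heat shock genes and 10 genes of glycolysis and hypoxia, 0 were called. Over all members 2 of the immediate early and heat shock genes were called higher and 1 of the glycolysis and hypoxia genes lower. The cell cycle genes, of which 0 were called in either set, had a median of 0.27 in the denser members and of -0.39 over all members.

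The lowest log2 fold changes, among genes that were called and lower in Myh11-rich cells of each library, depended on the sparse members. Over all members they were those of Car3 (carbonic anhydrase 3, -3.09), Cldn10 (a claudin, -3.07), Chl1 (an adhesion molecule, -2.86), Enpp3 (-2.84), Angptl1 (-2.84), the potassium channel gene Kcnk2 (-2.80), Il33 (-2.71), Gm37063 (-2.70), St8sia2 (-2.70) and Rspo3 (an enhancer of Wnt signalling, -2.67). By the same criterion, those of the denser members were Abca8a (-2.08), Insyn1 (-1.60), Meox1 (a homeobox factor, -1.54), Vcam1 (-1.48), Sned1 (-1.48), Nostrin (which binds endothelial nitric oxide synthase, -1.32), Fbln1 (fibulin 1, -1.31), Spi1 (the myeloid factor PU.1, -1.30), Mmp11 (-1.28) and Stk10 (-1.27). Vcam1, an adhesion molecule for leukocytes, had 126, 56.8 and 92.5 CPM in the control libraries and 164, 324 and 209.6 in the knockout libraries in Myh11-poor cells. In Myh11-rich cells it had 12.6, 25.3 and 52.2 CPM in the control libraries and 43.6, 47.6 and 78.6 in the knockout libraries, lower in each library. Of 12 abundant transcripts of other callus cells, which stand for free RNA, 2 were called lower in Myh11-rich cells among the denser members (Col10a1 at -1.03 and Hbb-bs at -2.14), and their median was -0.31. Of 9 osteochondral and marrow stromal genes, 7 were called lower over all members and 1, Ctsk, at -0.52 among the denser members. The part of such RNA in the lower genes was not tested.

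Mural cells were a smaller share of the barcodes in the knockout libraries. They made up 6.36% (95% Clopper-Pearson interval 5.45 to 7.38), 6.82% (6.29 to 7.38) and 8.43% (7.85 to 9.05) of kept barcodes in the control libraries. In the knockout libraries they made up 2.24% (1.66 to 2.96), 1.07% (0.875 to 1.30) and 2.35% (2.01 to 2.73). The groups did not overlap, with 7.20% ± 1.09 against 1.89% ± 0.709 (SD, n = 3 libraries each), a difference of -5.32 percentage points (two-sided exact permutation test, p = 0.1, the smallest that 3 against 3 libraries allow; 0.2 adjusted over 4 shares). Within each replicate number, and so within the same software version and gene list, the share was lower in the knockout library, in 3 of 3. Without replicate 3 of both groups, and with it the library with Xist, the difference was -4.93, and for the denser members it was -4.90. The intervals cover counting error only, a share of barcodes also depends on which cells survive digestion, and this difference was known when the cells were chosen.

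Set against the vascular cells alone, the groups overlapped. Mural cells were 33.9, 23.1 and 42.5 per 100 mural and endothelial cells in the control libraries and 30.6, 7.56 and 15.1 in the knockout libraries, with 33.1 ± 9.73 against 17.7 ± 11.7 (difference -15.4, two-sided exact permutation test, p = 0.2, adjusted 0.267), and the knockout library was the lower one within 3 of 3 replicate numbers. Knockout library 1, with 48 mural and 109 endothelial cells, lay within the range of the controls, and without it the difference was -21.8. Without replicate 3 of both groups the difference was -9.41 (exact permutation p = 0.667), and among the denser members it was -16.1 (29.8 ± 9.78 against 13.7 ± 9.08). Endothelial cells were 15.5% ± 6.27 of kept barcodes in the control and 10.5% ± 4.67 in the knockout libraries (two-sided exact permutation test, p = 0.6).

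Fewer of the mural cells were Myh11-rich in the knockout libraries when all members were counted. Their share was 60.7%, 69.3% and 54.6% in the control libraries and 24 of 48 cells, 25.5% and 43.3% in the knockout libraries, with 61.5% ± 7.38 against 39.6% ± 12.7 (difference -21.9 percentage points, two-sided exact permutation test, p = 0.1, the smallest possible, adjusted 0.2), lower within 3 of 3 replicate numbers. Among the denser members the groups overlapped, at 70.0% ± 13.9 against 52.9% ± 16.5 (difference -17.1, exact permutation p = 0.2). With each cell thinned to 1000 UMIs the difference was -19.1, again with overlap (exact permutation p = 0.2). Without replicate 3 of both groups it was -27.3 (exact permutation p = 0.333, the smallest that 2 against 2 libraries allow). Myh11 is also a rule gene, so this share depends in part on how the members were chosen.

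**Figure D4:**
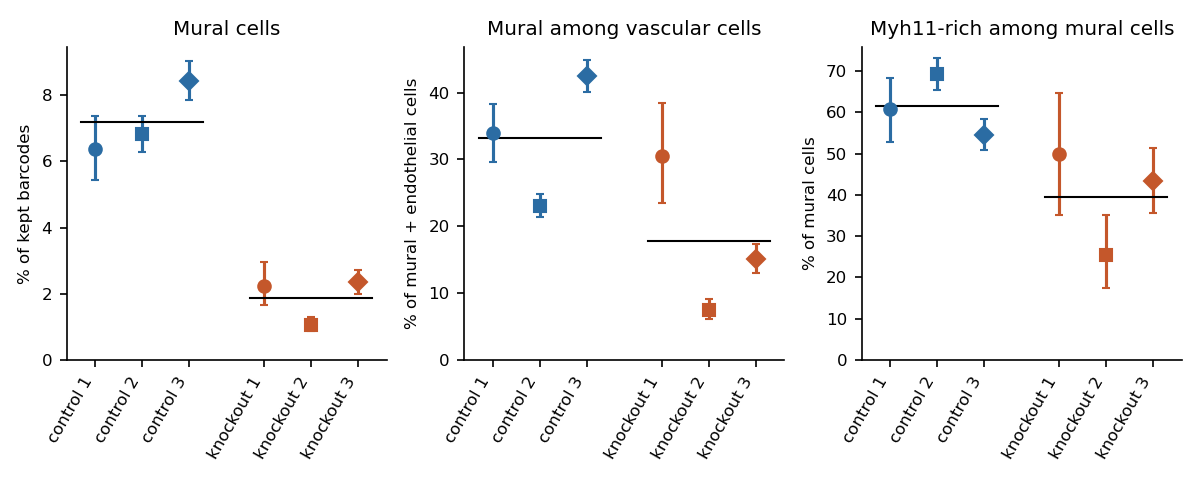
Share of mural cells among kept barcodes, mural cells per 100 vascular cells and share of Myh11-rich cells among mural cells (percent), with 1 point per library, its 95% Clopper-Pearson interval and the mean of each group as a line. The knockout libraries lie below the control libraries in the panels of the mural share and of the Myh11-rich share, and knockout library 1 lies among the control libraries in the panel per 100 vascular cells.

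Piezo1, the gene the study deleted in Col2a1-expressing cells, was not lower in the mural cells of the knockout libraries. Its level was 32.9, 21.2 and 31.3 CPM in the control libraries and 61.9, 49.1 and 31.2 in the knockout libraries, on 121, 104 and 173 UMIs against 94, 55 and 85. The log2 fold change was 0.74 (SE 0.28, edgeR quasi-likelihood test over 12358 genes, adjusted p = 0.848). With the sparse members left out it was at 24.7, 21.4 and 23.1 CPM against 45.8, 46.6 and 28.2, without overlap but not past the threshold (log2 fold change 0.80, SE 0.26, edgeR adjusted p = 0.978). The log2 fold change was 1.05 without replicate 3 of both groups. Piezo2, the related channel, had 105, 70.4 and 93.1 CPM in the control libraries and 59.2, 60.7 and 65.8 in the knockout libraries (log2 fold change -0.48, SE 0.24).

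No gene passed the threshold between the genotype labels in mural cells in the edgeR quasi-likelihood test. It called 0 of 12358 genes (0.0%) with a lowest adjusted p of 0.725 and found 708 (5.73%) at an unadjusted p under 0.05. In counts simulated from these libraries, the test called 3.08% of the genes given a log2 change of 1 and 90.4% at 2. The 0 calls therefore say little about changes of 2-fold or less. Without 1 library this last number ranged from 279 (without control library 2) to 1756 of 12962 genes (without knockout library 1). DESeq2 called 18 genes (0.146%), 7 higher (0.0566%) and 11 lower (0.089%) in the knockout libraries. In the denser members edgeR called 0 of 10991 genes, and without replicate 3 of both groups 0 of 12194. The levels of 1249 genes (10.1%) did not overlap between the groups, 664 lower (5.37%) and 585 higher (4.73%) in the knockout libraries. In the denser members 8.84% did not overlap, 4.63% lower and 4.21% higher. The lists below are read beside these shares. In endothelial cells edgeR called 0 of 14490 genes (708 at an unadjusted p under 0.05) and DESeq2 13. There the number under 0.05 ranged from 236 (without control library 2) to 2078 (without knockout library 1). The test of whether the genotype difference differed between mural and endothelial cells called 0 of 14968 genes in edgeR (lowest adjusted p 0.211, 907 at an unadjusted p under 0.05) and 4 in DESeq2. Among the denser members it called 0 of 14975 genes in edgeR. Without 1 library, 511 to 1185 genes were at an unadjusted p under 0.05 in this test over all members.

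The contractile apparatus was at lower values in the knockout libraries. All 15 of its genes besides Myh11, a rule gene, had log2 fold changes below 0 over all members, with a median of -0.60 (all genes tested, -0.0098), and 7 of 15 had levels that did not overlap, against 5.37% of all genes. Without replicate 3 of both groups, 15 of 15 were below 0 with a median of -0.84. Of the 11 genes of the list tested in endothelial cells, 7 were below 0 with a median of -0.44. Pln had 137, 55.1 and 28.6 CPM in the control libraries and 17.1, 8.04 and 13.2 in the knockout libraries, each control above each knockout library (log2 fold change -2.42, SE 0.55, adjusted p = 0.848 in edgeR and 0.0114 in DESeq2). Mylk, the kinase that starts contraction, had 1093, 1221 and 973 CPM in the control libraries and 921, 407 and 415 in the knockout libraries (log2 fold change -0.91, SE 0.35), again without overlap, and Tpm2 had 1249.7, 1858 and 1418 CPM in the control libraries and 962, 725 and 1063 in the knockout libraries. Myh11 itself had 1953, 1285 and 647 CPM in the control libraries and 1097, 293 and 327 in the knockout libraries and overlapped, and Acta2, at 3503, 5644 and 3587 CPM in the control libraries and 2692, 2430.4 and 4558 in the knockout libraries, had a log2 fold change of -0.34 (SE 0.41).

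With the sparse members set aside these differences were smaller. Of the 15 contractile genes, 12 were then below 0, the median was -0.38 (all genes tested, -0.00031), and 1 of 15, Pln, did not overlap, against 4.63% of all genes. Acta2 was at 0.053 (SE 0.35). Without control library 1, which holds the highest Myh11, Pln and Lmod1, 8 of the 16 genes, now counting Myh11, of the denser members were below 0 and the median was -0.030. In Myh11-rich cells alone 10 of 16, again counting Myh11, were below 0 with a median of -0.19, and in Myh11-poor cells 12 of 13 with a median of -0.66. Myh11 is a rule gene and also set the split, so the counts that include it are a description. The shares of sparse and of Myh11-poor cells differed between libraries, as given above; those of sparse cells overlapped between the groups, as did those of Myh11-poor cells among the denser members, and their part in these values was not tested.

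Genes of vessel tone had a like pattern. Of 17 tested, 16 were below 0 with a median of -0.57, and 5 did not overlap; among the denser members 14 of 17 were below 0 with a median of -0.31, and 0 were without overlap. Of the 17, 14 were below 0 with a median of -0.64 without replicate 3 of both groups. In endothelial cells 8 of 11 tested were above 0 with a median of 0.46. P2rx1 had 40.2, 43.1 and 24.8 CPM in the control libraries and 17.1, 9.83 and 8.09 in the knockout libraries (log2 fold change -1.61, SE 0.33, adjusted p = 0.848 in edgeR). Gucy1b1 had 140.1, 207 and 197 CPM in the control libraries and 129.7, 79.5 and 126 in the knockout libraries, without overlap, a log2 fold change of -0.66 (SE 0.30). Ednra, the endothelin receptor, had 123, 207 and 238 CPM in the control libraries and 222, 85.7 and 78.7 in the knockout libraries, with knockout library 1 among the controls.

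Pericyte and basement membrane genes were compared next. Of 12 pericyte genes outside the rule, 9 were below 0 with a median of -0.54 over all members and 0 did not overlap, and 6 of 12 were below 0 with a median of -0.15 among the denser members. The other 4 of the list are rule genes, on whose UMIs both the members and the denser members were chosen, and their values are a description. Rgs5, one of them, had 4081, 10290.0 and 7743 CPM in the control libraries and 4856, 3139 and 4716 in the knockout libraries over all members (log2 fold change -0.77, SE 0.43), and -0.30 (SE 0.32) among the denser members. Pdgfrb had 408, 625 and 786 CPM in the control libraries and 477, 852 and 470.4 in the knockout libraries (log2 fold change 0.0062, SE 0.38). Vtn, vitronectin, an adhesive protein that pericytes secrete, had 126, 168 and 241 CPM in the control libraries and 113, 35 and 95.6 in the knockout libraries among the denser members, the single pericyte gene without overlap there. Of 16 basement membrane genes, 15 were below 0 with a median of -0.33, and 9 of 16 with a median of -0.036 among the denser members. Of the Notch genes, Nrarp had 38.3, 83.6 and 60.3 CPM in the control libraries and 36.2, 25.9 and 32.3 in the knockout libraries (log2 fold change -0.91, SE 0.33), without overlap in all and in the denser members. Of 9 Notch genes tested among the denser members, 7 were below 0 with a median of -0.23, and 3 did not overlap, each lower (Nrarp, Hey2 and Rbpj, the factor through which Notch acts), against 4.63% of all genes; Hey2 and Rbpj overlapped over all members.

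For the other lists, the median log2 fold change over all members was -0.32 for the contractile regulators, -0.22 for the Notch pathway, -0.085 for PDGF and angiopoietin genes, -0.14 for interstitial matrix, -0.24 for adhesion and -0.52 for cytokines and chemokines. It was -0.14 for TGF-β and BMP genes, -0.18 for mechanosensing, -0.31 for immediate early and heat shock genes and 0.19 for glycolysis and hypoxia. Among the denser members the medians were -0.27 for the contractile regulators, -0.23 for the Notch pathway and 0.050 for PDGF and angiopoietin genes. They were -0.0070 for interstitial matrix, -0.076 for adhesion and -0.12 for cytokines and chemokines. For TGF-β and BMP genes the denser median was -0.078, for mechanosensing -0.13, for immediate early and heat shock genes -0.27 and for glycolysis and hypoxia 0.33. The osteochondral and marrow stromal genes had a median of 0.64, with 7 of 9 above 0, and 0.43 among the denser members, with 5 of 8 above 0. Of the 10 contractile regulators, 8 were below 0 and 2 did not overlap.

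Genes of the cell cycle were at higher values in the knockout libraries. Of 10, 9 were above 0 with a median of 0.61, and 7 did not overlap, against 4.73% of all genes. Without replicate 3 of both groups, 10 of 10 were above 0 with a median of 0.69. The endothelial cells of the same libraries leaned the same way, with 8 of 10 above 0 and a median of 0.40. Birc5, survivin, a protein of dividing cells, had 43.8, 33.8 and 50.7 CPM in the control libraries and 65.2, 77.7 and 77.5 in the knockout libraries (log2 fold change 0.82, SE 0.26, edgeR adjusted p = 0.848). Ccnb1, cyclin B1, had 15.0, 12.4 and 16.7 CPM in the control libraries and 32.9, 20.5 and 29.8 in the knockout libraries. Among the denser members 9 of 10 were above 0 with a median of 0.70, but 1 of 10, Birc5, did not overlap, against 4.21% of all genes, and in the denser Myh11-poor cells all 7 tested were below 0 with a median of -0.74.

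The genes that DESeq2 called, of which those outside the fixed lists are named after their values were seen, had effects in the same direction in the edgeR fit. Igfbp5, a binding protein of insulin-like growth factors, had 1501, 1906 and 2027 CPM in the control libraries and 839.9, 429.6 and 251 in the knockout libraries, each control library above each knockout library (log2 fold change -1.85, SE 0.42, adjusted p = 0.848 in edgeR and 0.00687 in DESeq2). In the denser members it was at 2232, 1925 and 2309.8 against 1363, 624 and 242 CPM. Eln had 267, 594 and 315 CPM in the control libraries and 134, 127 and 89.7 in the knockout libraries and did not overlap in the denser members either, where the log2 fold change was -1.31 (SE 0.35). Itih5, Tesc, Nrip2, Ntrk2, Rsad2, Scx and Lrrc15 were the other genes lower in DESeq2 besides Pln and P2rx1. Cdkn2a had 17.4, 14 and 14.7 CPM in the control libraries and 55.3, 55.4 and 36.4 in the knockout libraries (log2 fold change 1.69, SE 0.23, adjusted p = 0.725 in edgeR and 0.000385 in DESeq2). Its products include the cell cycle inhibitor p16, but UMIs were counted per gene and do not single out p16. The level of Cdkn2a in the denser members was 2.69, 13.8 and 13.6 against 5.88, 23.3 and 23.4 CPM, which overlapped. Mmp9, a matrix protease abundant in osteoclasts and neutrophils, St6galnac4, Bmp8a, Wnt4, Bmp3 and Lrrn3 were the others that were higher in DESeq2. Each had a higher mean in the sparse than in the denser members of the knockout libraries. Mmp9 was at 195, 15.7 and 56.2 against 1220.3, 4823 and 1834 CPM in the sparse members. Its level in the others was 13.4, 14.6 and 92.0 against 16.5, 2057 and 594 CPM, with overlap. St6galnac4 did not overlap in the denser members, at 17.2, 23.7 and 21.6 against 47.0, 103 and 62.1 CPM (log2 fold change 1.76, SE 0.34), and Wnt4 overlapped there. Bmp8a, Bmp3 and Lrrn3 were too low in the denser members to be tested.

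Of the marker lists of other cell types, the immune and the glial list separated the genotype labels over all members. The immune list of 8 genes summed to 143, 542 and 733 CPM in the control libraries and 877, 1151 and 899 in the knockout libraries in mural cells, without overlap, and overlapped among the denser members, at 143 to 1335 CPM. The osteoblast list of 6 genes summed to 18090.0, 3584 and 9889.9 CPM in the control libraries and 19441, 13939 and 10892 in the knockout libraries, where control library 1 lay above knockout libraries 2 and 3, so the groups overlapped. S100a8 and Col1a1 were their most abundant genes, and no marker of either list was at 0 in all libraries. The chondrocyte list summed to 201 to 8509.9 CPM, the fibroblast list to 418 to 2209.7, the erythroid list to 2.18 to 562 and the skeletal muscle list, of which 1 of 5 genes was at 0 in all libraries, to 0.893 to 15.2, and the groups overlapped in these 4. The glial list of 4 genes, led by S100b, summed to 32.4, 25.8 and 27.4 CPM in the control libraries and 14.5, 13.4 and 20.2 in the knockout libraries, without overlap. Among the denser members it did not overlap either, at 17.7, 23.5 and 27.1 against 14.1, 9.71 and 13.3 CPM. Of 12 transcripts that stand for free RNA, 11 were above 0 with a median of 0.81 over all members, and 6 of 12 with a median of 0.21 among the denser members. In endothelial cells 11 of the 12 were above 0, with a median of 0.77. The part of this RNA in the genotype values of the mural cells was not tested.

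**Figure D5:**
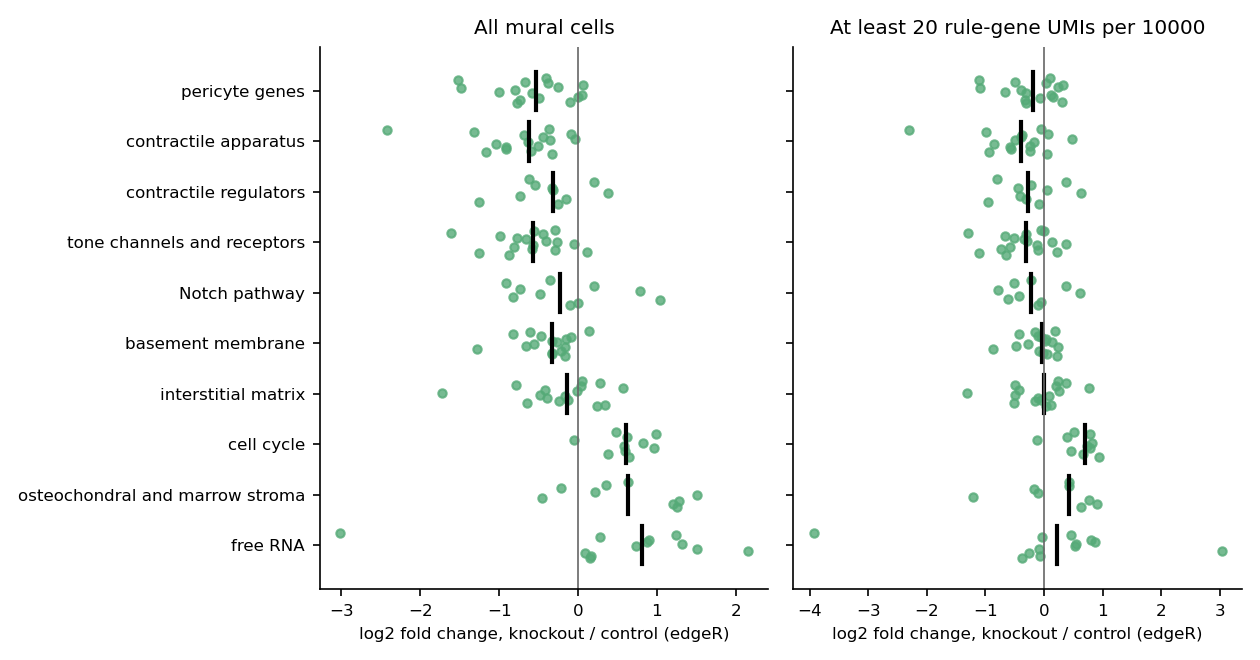
Log2 fold change of knockout against control (edgeR) for each gene of 10 lists, over all mural cells and over those with at least 20 rule UMIs per 10000; each point is 1 gene and the black bar is the median of the list. The contractile apparatus has a median, with Myh11 counted, of -0.62 over all members and -0.39 in the denser ones, the cell cycle list 0.61 and 0.70, and 0 of these genes passed the edgeR threshold.

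The difference between Myh11-rich and Myh11-poor cells was compared between the genotype labels. Over all members edgeR called 0 of 11899 genes (lowest adjusted p 0.290, 535 at an unadjusted p under 0.05) and DESeq2 2. Without 1 library, 305 to 792 genes were at an unadjusted p under 0.05 in edgeR. Among the denser members edgeR called 4 of 10761 (0.0372%). The fitted ratio of Myh11-rich to Myh11-poor cells was lower in the knockout libraries for Lcn2 (1 gene, 0.00929%) and higher for Mmp9, Saa3 and Ccl7 (3 genes, 0.0279%). The ratios of the single libraries did not overlap between the groups for Lcn2 and Ccl7, but some of these ratios rest on very low levels, given below. They overlapped for Mmp9 and Saa3, and for Saa3 knockout library 1 alone lay above the controls and knockout library 3 below them.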

How the data were processed

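UMI counts per gene and barcode were deposited for each library by the authors, who had aligned 10x 3′ reads with Cell Ranger (6.1.1 or 6.1.2) to GRCm38, per the labels; values are whole-number counts. The 52081 gene identifiers shared by all libraries were used. They hold at least 97.8% of each library's UMIs. Libraries were grouped by genotype label. Members and gene lists were chosen with earlier results of these data known. Counts were summed per library and class and tested with edgeR 4.0.16 (R 4.3.3; filterByExpr, TMM, quasi-likelihood, Benjamini-Hochberg threshold of 0.05), with DESeq2 1.42.0 as an alternative and the library as a block between Myh11 classes; SE is the log2 fold change divided by the square root of F. Scripts were tested on simulated data. Shares were compared by exact permutation over libraries (scipy 1.17.1). Levels are CPM over the shared genes; log2 ratios within a library add a pseudocount of 1 CPM. High Scrublet scores (scanpy 1.11.5) marked 117 members, which were kept and removed in an alternative. Endothelial cells had at least 4 UMIs of Cdh5 and Pecam1, at most 1 of Ptprc and fewer than 5 of the rule genes; immune cells had at least 4 of Ptprc. Named genes were the 17 lists (223 genes), the rule genes, Acta2 and Piezo1, and, for each comparison, up to 10 genes each way with the largest fold changes among those past the threshold, with the same sign in each library or without overlap between groups; exceptions are stated. The other alternatives varied the filters on cells and low counts, the rule's thresholds, the split, depth, the pairing and the libraries. Whether UMIs of overlapping or antisense genes were split was not examined.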

Additional observations from a re-analysis of the deposited data

Results flagged for a closer look

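Xist, which enters no comparison, stood at 604 CPM in the mural cells of knockout library 3, against at most 1 UMI in those of any other library.

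A share of list genes like that of all genes differed in opposite directions between Myh11-rich and Myh11-poor cells in all libraries of either group in the denser members, so the genes below are given as values and not as a result about the lists. They were 4 of 170 list genes with at least 10 CPM in each library (2.35%), beside 180 of all 7339 such genes tested (2.45%). In the edgeR test of the difference between the groups, given below for the genes it called, 0 of the 4 passed the threshold. Ednrb, an endothelin receptor, had log2 ratios of Myh11-rich to Myh11-poor cells of -1.84, -1.01 and -0.43 in the control libraries and 0.34, 0.97 and 0.58 in the knockout libraries, a difference of means of 1.73. Id2, a target of BMP signalling, had 0.80, 0.54 and 0.33 against -0.098, -0.46 and -0.046, a difference of -0.76. The bone and cartilage genes Mmp13 and Ibsp differed by -1.70 and -1.88; Mmp13 had means of 0.95 and -0.75, but control library 3 was at 0.00038, and Ibsp had means of 0.72 and -1.16.

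The edgeR test of the difference itself called 4 genes in the denser members, with log2 fold changes (knockout against control, of the Myh11-rich to Myh11-poor ratio) of -3.45 for Lcn2 (SE 0.46, adjusted p = 0.00248), 3.01 for Mmp9 (SE 0.50, adjusted p = 0.0168), 3.54 for Saa3 (SE 0.53, adjusted p = 0.0111) and 2.70 for Ccl7 (SE 0.43, adjusted p = 0.0126). Lcn2, lipocalin 2, an iron-binding protein of inflammation, had log2 ratios of -0.61, 0.083 and 2.05 in the control libraries and -2.21, -1.03 and -2.51 in the knockout libraries. Control library 1 held 5.16 CPM of Lcn2 in Myh11-rich and 8.41 CPM in Myh11-poor cells, so its ratio rests on few UMIs. Mmp9 had -0.94, -0.98 and -3.69 against -1.42, 0.72 and 0.48, so the groups overlapped, and its level in Myh11-poor cells was 25.2, 23.3 and 220 CPM against 35.6, 1561 and 472. Ccl7, a monocyte chemokine, had -2.13, -0.58 and -0.60 against 1.27, 0.047 and 2.57. Its level in Myh11-rich and Myh11-poor cells was 1.15 and 8.41 CPM in control library 1 and 3.97 and 3.81 CPM in knockout library 2. The Ccl7 ratios of these libraries, and with them the lack of overlap, rest on few UMIs. Saa3, an acute phase protein, had 1.44, 0.25 and -0.65 against 3.13, 0 and -2.03, and knockout libraries 2 and 3 held 0 to 3.08 CPM of it in either class, whereas Myh11-rich cells of knockout library 1 held 1886 CPM. The immune marker list summed to 212 CPM in the denser members of knockout library 1 and to 1335 and 959 in knockout libraries 2 and 3; its part in these calls was not tested.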

How the results depend on the processing

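The knockout difference in the mural share stayed negative without overlap in the 15 alternatives run (-5.90 to -4.57 percentage points), and between -5.74 and -4.70 without 1 library. The differences per 100 vascular cells and in the Myh11-rich share stayed negative, at -21.8 to -10.3 and -27.1 to -14.9 without 1 library, and at -9.41 and -27.3 without replicate 3 of both groups. With at least 8 rule UMIs the Myh11-rich share differed by -18.0 and the groups overlapped (two-sided exact permutation test, p = 0.2). No alternative can bring the exact tests of 3 against 3 libraries under 0.1. Piezo1 stayed above 0 (0.57 to 1.05).

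The genotype test in mural cells, with 0 calls in edgeR, gave 18 in DESeq2, 245 without the filter on low counts, where the median log2 fold change of all genes was -0.14, and 2 in the denser members with the replicate block (Igkc and Igha, immunoglobulin genes, both lower). It gave 0 without any 1 library, without replicate 3 of both groups and with the replicate block (0 of 13005 genes). In endothelial cells DESeq2 gave 13 calls, the unfiltered test 26 and the replicate block 0. The test between mural and endothelial cells gave 4 calls in DESeq2 (Pi15, Dpt, Ppm1e and Cd38), 381 unfiltered and 0 to 5 without 1 library; the 5, without control library 1, were Ramp1, Cd55, Eva1a, Fxyd1 and Cgnl1. The genotype test of the Myh11 difference gave 2 in DESeq2 (Bglap and Col11a2), 116 unfiltered, 1 without high doublet scores (Bglap), 4 in the denser members and 0 to 4 without 1 library (4 without control library 1: Gm13889, Ednrb, Cilp and Higd1b; 1 without control library 3: Bglap). These small sets were named after their values were seen. The Myh11 split, with 1347 calls, gave 260 without the library block, 2035 unfiltered, 554 in the denser members, and 682 to 1423 without 1 library (682 without control library 1, 872 without control library 2 and 897 without knockout library 1). The cause was not tested.

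Some directions turned. For the genotype labels, Acta2 (-0.34) was at 0.31 in Myh11-rich cells, 0.053 in the denser members and 0.053 there with the replicate block. In denser Myh11-rich cells it was at 0.30. In denser members it was at 0.19 without control library 1 and 0.12 without control library 2. There it was also at 0.19 without knockout library 1 and 0.096 without knockout library 2. It stayed below 0 in denser members without control library 3 or without knockout library 3, and in denser Myh11-poor cells (-0.16 to -0.057). Cnn1 was at 0.040 in the denser members without control library 1. For the Myh11 split, Kcnj8 (-0.02) was at 0.044 with a split at 2 Myh11 UMIs, 0.17 with cells of 3 or more against 0, 0.0054 in cells with at least 3000 UMIs, 0.055 in DESeq2, 0.012 unfiltered and -0.25 to 0.28 without 1 library. Abcc9 (0.19) was at -0.018 with a split on cells thinned to 1000 UMIs, -0.027 without the library block, -1.0 in the denser members and -0.077 to 0.45 without 1 library. Steap4 and Pdgfrb, above 0 over all members, were below 0 in the denser members.

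The replicate numbers did not meet the limit set for pairing, a correlation over 0.1 in every pair, although same-numbered libraries share the software version and gene list: deviations from the group mean correlated across genes at r = 0.27, -0.10 and 0.18 between same-numbered libraries in mural cells and 0.41, 0.12 and 0.085 in endothelial cells, and in mural cells control library 2 correlated best with knockout library 3 (0.16). Knockout libraries 1 and 2 had the fewest mural cells, 48 and 102, and the part of these cell numbers in the precision was not tested. In simulated counts, the genotype test in mural cells called 3.08% of the genes given a log2 change of 1 and 90.4% at 2. For the genotype test of the Myh11 difference, over all members, these shares were 9.95% and 73.4%.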
